A study of Arabidopsis thaliana with 8 samples.

Results

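Transcripts of phyB mutant seedlings were compared with those of wild-type seedlings after the same 1 h of red light. The comparison rested on 4 of the 8 RNA-sequencing libraries of the series, 2 of the phyB mutant and 2 of wild type (WT red), chosen by genotype and light treatment, and it covered the 20716 genes that passed a filter on low counts, out of 27416 in the files. All seedlings were Arabidopsis thaliana of the Col-0 ecotype, grown on medium with 1% sucrose, kept at 4 °C for 3 days, given 12 h of white light and held in darkness for 5 days. WT red and phyB then received 1 h of red light (50 µmol of photons per square metre each second), and so did a phyA phyB double mutant (phyAB), while dark wild type (WT dark) received none. Neither the labels nor the files name the mutant alleles, and whole seedlings were sampled. Dark phyB seedlings were not analysed here, so differences already present in darkness and those that arose in the light cannot be told apart. In whole seedlings, fewer cells of a type and less RNA per cell cannot be told apart either.

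Phytochromes are photoreceptors that red light turns into their active form. Active phytochrome B enters the nucleus and inactivates the PIFs, phytochrome-interacting bHLH transcription factors that drive elongation growth in darkness and in shade. phyB is the main phytochrome of plants in red light, whereas phyA, abundant in dark-grown seedlings and broken down in light, is the main receptor of far-red light. Seedlings without phyB stay long in red light and resemble shaded plants.

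The libraries held 15926547 and 22116924 reads in phyB and 19760675 and 16326741 in WT red, so that the limit which a count of 0 allows, 3 reads, was 0.135 to 0.188 CPM (reads of a gene per 1e6 reads of the scaled library), for counting error only. The labels do not say whether the 2 libraries of a group came from separate batches of seedlings. They lay close together, with a common biological coefficient of variation of 1.59%, so the p-values reflect the scatter of these libraries alone, possibly a technical one. Of the tested genes 27.2% differed, 2717 higher in phyB (13.1%) and 2916 lower (14.1%), at an adjusted p below 0.05 in edgeR's quasi-likelihood test with Benjamini-Hochberg adjustment. Every adjusted p given here comes from that test unless another is named, and "higher" or "lower" of a gene means that it passed it. Most differences were small, with a median of 1.24-fold over the called genes. At least 2-fold, 234 genes were higher (1.13%) and 215 lower (1.04%), 2.17% together. With a coefficient of variation of 0.1 assumed between batches in place of the measured spread, 625 genes (3.02%) passed. The median log2 change of all tested genes was 0.0019. Genes past 2-fold were mostly weakly expressed, with a median of 3.78 CPM in their higher group against 16.9 over all tested genes.

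**Figure D1:**
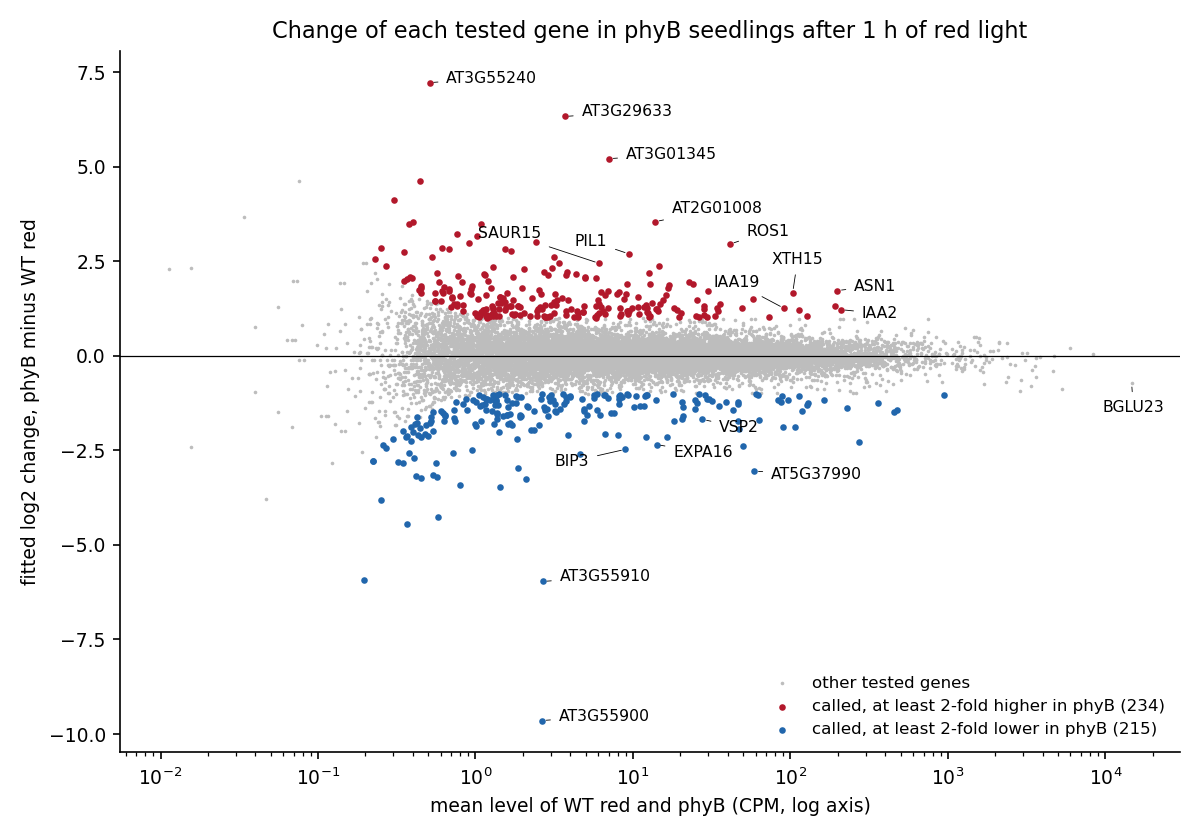
Fitted log2 change of each of the 20716 tested genes (phyB minus WT red, vertical axis) against its mean level in both groups (CPM, log axis). Red and blue points are the 234 and 215 called genes at least 2-fold higher or lower in phyB. The fitted changes of AT3G55900 and AT3G55240 depend on the prior count, since each gene has a group without reads.

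PHYB itself was still transcribed in the mutant, at a lower level. PHYB (AT2G18790, chr2:8139756-8144461 of TAIR10.1, plus strand) was at 96.0 and 95.2 CPM in WT red and 62.3 and 64.3 in phyB (log2 change -0.59, SE 0.045, adjusted p = 7.3e-24), with 52.9 and 50.4 CPM in phyAB and 80.7 and 81.4 in WT dark. Both mutants lay below both wild-type groups, and the reads that remain do not show which change the allele carries. PHYA was at 463 and 471 CPM in WT red and 703 and 703 in phyB (log2 change 0.59, SE 0.015, adjusted p = 4.21e-71), between WT red and WT dark at 834 and 828 CPM, whereas phyAB had 124 and 123. Under the assumed coefficient of variation of 0.1 neither difference passed (adjusted p = 0.101 for PHYA and 0.11 for PHYB). PHYC was not called, at 46.8 and 46.8 CPM in WT red and 45.03 and 46.4 in phyB (adjusted p = 0.76). PHYD and PHYE, the closest relatives of PHYB, were higher at log2 changes of 0.36 and 0.26, but PHYD was not called without phyB replicate 2 or either of the WT red libraries, where its log2 change was 0.35 to 0.37. PHYE was not called without WT red replicate 2 or phyB replicate 1, where its log2 change was 0.23 and 0.23. Of 9 other photoreceptor genes 4 were higher and 1 lower, and PHOT1, a blue-light receptor of phototropism, changed the most, at 219 and 211 CPM in WT red and 398 and 395 in phyB (log2 change 0.88, SE 0.027, adjusted p = 4.77e-62).

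Genes that mark the shade response were higher in phyB. All 4 HLH shade genes passed, with a median log2 change of 1.15; they encode atypical bHLH proteins that restrain growth in shade. PIL1, an early shade marker, was at 2.23 and 2.88 CPM in WT red and 15.9 and 16.7 in phyB (log2 change 2.69, SE 0.15, adjusted p = 8.17e-36). phyAB had 15.9 and 16.9 CPM, and WT dark, above both mutants, had 25.4 and 25.5. PAR1 was at 5.34 and 5.52 CPM in WT red and 19.5 and 20.6 in phyB (log2 change 1.89, SE 0.12, adjusted p = 2.99e-30), and its phyB level approached that of WT dark at 22.3 and 20.5 CPM. HFR1, which forms inactive pairs with PIFs, differed less, at 183 and 183 CPM in WT red and 233 and 228 in phyB (log2 change 0.33, SE 0.03, adjusted p = 3.07e-19), and did not pass under the assumed coefficient of variation of 0.1 (adjusted p = 0.699).

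Of the 8 homeodomain-leucine zipper genes of class II, several of which act in shade growth, 5 were higher and 2 lower, with a median log2 change of 0.78. ATHB-4 was at 1.399 and 1.76 CPM in WT red and 4.99 and 4.72 in phyB (log2 change 1.63, SE 0.23, adjusted p = 2.5e-09). ATHB-2, the best-studied shade gene of the family, was at 15.1 and 15.7 CPM in WT red and 23.5 and 26.0 in phyB (log2 change 0.69, SE 0.086, adjusted p = 7.15e-12), while phyAB stood at 25.3 and 23.9 CPM and WT dark at 51.6 and 52.7. HAT1 and HAT2 were higher by log2 changes of 0.96 and 0.96. HAT22 and ATHB-17 were lower, at log2 changes of -0.16 and -0.55, and without WT red replicate 1 or phyB replicate 2 the lower members were 1, since ATHB-17 was then not called.

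Of 17 bHLH genes from the network of factors that promote or restrain cell elongation, 16 were tested, 11 were higher, 6 of them at least 2-fold, and 0 were lower, with a median log2 change of 0.60. The higher ones included 8 of the 10 genes of the PRE, BEE and HBI1 proteins, which promote elongation. IBH1 and AIF1 to AIF4 of the same list encode inhibitors that act against these proteins, and of these 5 AIF3 (AT3G17100) and AIF4 (AT1G09250) were higher (log2 change 0.53 and 0.40) and the others were not called. PRE6, of the small HLH proteins that promote cell elongation, was at 29.7 and 30.4 CPM in WT red and 81.9 and 88.5 in phyB (log2 change 1.51, SE 0.056, adjusted p = 6.17e-53). BEE1, a brassinosteroid-responsive factor, was at 14.1 and 12.8 CPM in WT red and 37.8 and 37.8 in phyB (log2 change 1.48, SE 0.085, adjusted p = 9.1e-34). In both genes the phyB libraries lay above every other library (of all tested genes, 30.2% had both phyB libraries above both of WT red and 30.1% had both below), WT dark having 63.97 and 61.4 CPM of PRE6 and 25.0 and 22.1 of BEE1. The PIF genes themselves moved little: of 7, 3 were higher and 1 lower, the largest difference being that of PIF7 at 12.9 and 11.7 CPM in WT red and 8.48 and 9.71 in phyB (log2 change -0.43, SE 0.13, adjusted p = 0.00836). PIF3 (log2 change 0.31, SE 0.065, adjusted p = 3.77e-05) kept its call without each library in turn. The higher and lower PIF genes numbered 1 and 0 without WT red replicate 1, 2 and 0 without phyB replicate 1, and 1 and 1 without phyB replicate 2, and PIF7 was not called without WT red replicate 1 or phyB replicate 1.

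Many auxin-responsive genes were higher. Of 80 SAUR genes, which encode small auxin-up RNA proteins that promote cell expansion, 68 were tested and 33 were higher, 23 of them at least 2-fold, against 4 lower and 0 at least 2-fold lower. Their median log2 change was 0.47. SAUR25 was at 0.881 and 0.878 CPM in WT red and 5.36 and 5.44 in phyB (log2 change 2.61, SE 0.25, adjusted p = 4.04e-17). SAUR15 was at 1.92 and 1.88 CPM in WT red and 9.73 and 10.9 in phyB (log2 change 2.44, SE 0.19, adjusted p = 1.26e-22). SAUR22, whose near-identical neighbours may share its reads, was at 5.13 and 4.26 CPM in WT red and 24.6 and 24.8 in phyB (log2 change 2.38, SE 0.12, adjusted p = 1.15e-39). For these 3 genes the groups were far apart, and phyB stood above WT dark for SAUR15 (WT dark 4.11 and 6.07 CPM) and below it for SAUR25 (7.21 and 6.82). The lower members were SAUR36, SAUR55, SAUR59 and SAUR72, of which SAUR59 was at 27.3 and 25.3 CPM in WT red and 20.9 and 20.5 in phyB (log2 change -0.35, SE 0.083, adjusted p = 0.000353). The count of lower members was 2 without phyB replicate 1 and without either of the WT red libraries. Summed over the list, SAUR transcripts took 602 and 598 CPM in WT red and 943 and 955 in phyB, against 831 and 842 in WT dark.

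Of 29 Aux/IAA genes, which encode repressors of auxin signalling that auxin itself induces, 26 were tested, 17 were higher and 1 lower, with a median log2 change of 0.36. IAA29 was at 1.81 and 2.01 CPM in WT red and 7.67 and 8.23 in phyB (log2 change 2.07, SE 0.19, adjusted p = 1.97e-18). IAA19 was at 53.3 and 54.6 CPM in WT red and 125 and 132 in phyB (log2 change 1.254, SE 0.043, adjusted p = 8.61e-57). The single lower member was IAA28, at 26.8 and 27.5 CPM in WT red and 21.2 and 21.0 in phyB (log2 change -0.36, SE 0.083, adjusted p = 0.000208). Of 9 GH3 genes, many of which encode enzymes that conjugate auxin to amino acids, 7 were tested and 5 were higher. GH3.1 was at 1.86 and 1.88 CPM in WT red and 8.05 and 7.91 in phyB (log2 change 2.09, SE 0.20, adjusted p = 1.14e-17). Genes of auxin synthesis and inactivation split, with 2 higher and 3 lower of 13 tested. YUC8, an enzyme of the main synthesis route, was at 8.55 and 8.15 CPM in WT red and 15.7 and 18.7 in phyB (log2 change 1.05, SE 0.12, adjusted p = 7.35e-14), and YUC3 was the other higher gene. The lower genes were CYP79B2, CYP79B3 and DAO2, of which the CYP79B enzymes make a precursor of indole glucosinolates. CYP79B3 was at 85.5 and 87.0 CPM in WT red and 44.0 and 43.0 in phyB (log2 change -0.99, SE 0.049, adjusted p = 6.33e-40). Of 21 tested auxin transport genes 6 were higher and 6 lower, or 6 and 3 without WT red replicate 1 or phyB replicate 1, with a median log2 change of -0.04. Among the lower ones was WAG2, a kinase that regulates PIN carriers (log2 change -0.42). PIN3, an auxin efflux carrier that directs auxin in growing hypocotyls, was at 126 and 129 CPM in WT red and 196 and 199 in phyB (log2 change 0.64, SE 0.033, adjusted p = 6.91e-38), and not called under the assumed coefficient of variation of 0.1.

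PIFs are known to bind the G-box (CACGTG, which reads the same on both strands) and the PBE-box (CACATG, or CATGTG on the other strand), and the DNA before these genes was read for both. The 300 bases before each annotated gene start were taken from the TAIR10.1 genome and annotation of RefSeq, by locus identifier. Among 26718 such windows 7.18% held a G-box and 13.1% a PBE-box, and no position can match both. The windows of 7 genes at least 2-fold higher in phyB are shown as examples, picked after their values were seen, because each holds a motif (in capitals, 5′ to 3′ on the strand of the gene). They are chr3:5263701-5264000 for IAA19 (plus strand), chr1:6331098-6331397 for BEE1 (plus strand), chr1:9350860-9351159 for PRE6 (plus strand), chr4:14192269-14192568 for YUC8 (plus strand), chr4:18125757-18126056 for SAUR15 (plus strand), chr5:5975088-5975387 for SAUR22 (minus strand) and chr4:8000373-8000672 for SAUR25 (minus strand).
IAA19: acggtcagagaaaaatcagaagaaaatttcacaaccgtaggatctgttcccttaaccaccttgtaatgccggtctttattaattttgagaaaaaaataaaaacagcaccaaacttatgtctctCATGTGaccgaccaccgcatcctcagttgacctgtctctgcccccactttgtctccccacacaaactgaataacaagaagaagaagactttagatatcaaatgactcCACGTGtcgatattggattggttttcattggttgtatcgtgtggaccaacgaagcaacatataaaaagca
BEE1: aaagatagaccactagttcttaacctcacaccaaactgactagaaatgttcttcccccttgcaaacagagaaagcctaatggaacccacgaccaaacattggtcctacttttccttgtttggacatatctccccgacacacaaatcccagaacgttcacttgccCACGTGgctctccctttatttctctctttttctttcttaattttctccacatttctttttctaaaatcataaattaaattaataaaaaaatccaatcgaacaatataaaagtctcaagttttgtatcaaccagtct
PRE6: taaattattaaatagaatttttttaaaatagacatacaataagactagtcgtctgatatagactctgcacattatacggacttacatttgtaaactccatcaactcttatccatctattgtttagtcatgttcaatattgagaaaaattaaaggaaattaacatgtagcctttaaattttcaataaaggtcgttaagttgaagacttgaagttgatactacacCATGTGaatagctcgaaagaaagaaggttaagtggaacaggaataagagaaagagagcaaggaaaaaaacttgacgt
YUC8: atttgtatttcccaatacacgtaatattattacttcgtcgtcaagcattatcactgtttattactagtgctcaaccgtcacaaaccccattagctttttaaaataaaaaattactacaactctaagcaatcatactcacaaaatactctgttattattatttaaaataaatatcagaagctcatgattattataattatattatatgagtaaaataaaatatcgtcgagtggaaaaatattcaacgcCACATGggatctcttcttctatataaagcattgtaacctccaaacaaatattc
SAUR15: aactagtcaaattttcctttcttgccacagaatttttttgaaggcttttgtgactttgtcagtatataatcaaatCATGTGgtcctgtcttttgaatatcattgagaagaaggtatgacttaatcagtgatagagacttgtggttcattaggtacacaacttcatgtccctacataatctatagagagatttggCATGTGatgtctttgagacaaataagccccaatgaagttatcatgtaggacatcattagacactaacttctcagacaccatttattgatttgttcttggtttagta
SAUR22: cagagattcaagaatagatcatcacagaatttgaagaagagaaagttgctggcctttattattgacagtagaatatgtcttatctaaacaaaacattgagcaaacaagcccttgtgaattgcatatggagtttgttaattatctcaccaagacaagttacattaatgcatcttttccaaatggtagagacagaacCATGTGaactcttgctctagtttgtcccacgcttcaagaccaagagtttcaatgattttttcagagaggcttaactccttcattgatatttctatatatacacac
SAUR25: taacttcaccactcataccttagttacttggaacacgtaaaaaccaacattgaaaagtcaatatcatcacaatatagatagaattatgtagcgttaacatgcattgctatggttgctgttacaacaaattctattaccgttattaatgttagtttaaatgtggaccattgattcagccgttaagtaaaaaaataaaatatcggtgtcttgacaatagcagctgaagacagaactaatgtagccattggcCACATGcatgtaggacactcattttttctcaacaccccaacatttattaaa

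In IAA19 the G-box began 70 bases and the PBE-box 177 bases before the gene start, and the G-box of BEE1 began 136 bases before it. The PBE-boxes of PRE6, YUC8, SAUR22 and SAUR25 began 77, 53, 105 and 51 bases before the start, and SAUR15 held 2, at 225 and 106 bases. The windows of PIL1, PAR1, ATHB-4, PRE5, IAA2 and IAA29 held neither motif in these 300 bases. A PBE-box was in 32 of the 80 SAUR windows (40.0%) and in 9 of the 29 Aux/IAA windows (31.0%). A G-box was in 1 of the 80 SAUR windows, a share below the 7.18% of all windows, and in 4 of the 29 Aux/IAA windows (13.8%). Within the SAUR genes the PBE-box was in 23 of the 33 called higher (69.7%), in 6 of the 35 tested and not called higher (17.1%) and in 3 of the 12 not tested (25.0%), and the G-box in 0 of the 33 called higher. Among all genes past 2-fold the PBE-box was in 47 of the 234 higher (20.1%) and 33 of the 215 lower (15.3%), against 13.2% of all tested genes. The G-box was in 23 of the higher (9.83%) and 26 of the lower (12.1%), against 8.02% of all tested genes. The auxin response element TGTCTC, read on both strands, was in 12.9% of all windows and in 11 of the 29 Aux/IAA windows (37.9%). It was in 7 of the 80 SAUR windows (8.75%), with 7 of the 33 called higher and 0 of the 35 tested and not called higher. Among genes past 2-fold it was in 44 of the 234 higher (18.8%) and 24 of the 215 lower (11.2%). These shares carry no test, tandem SAUR genes share sequence, and a match describes letters in a window and not a bound site.

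**Figure D2:**
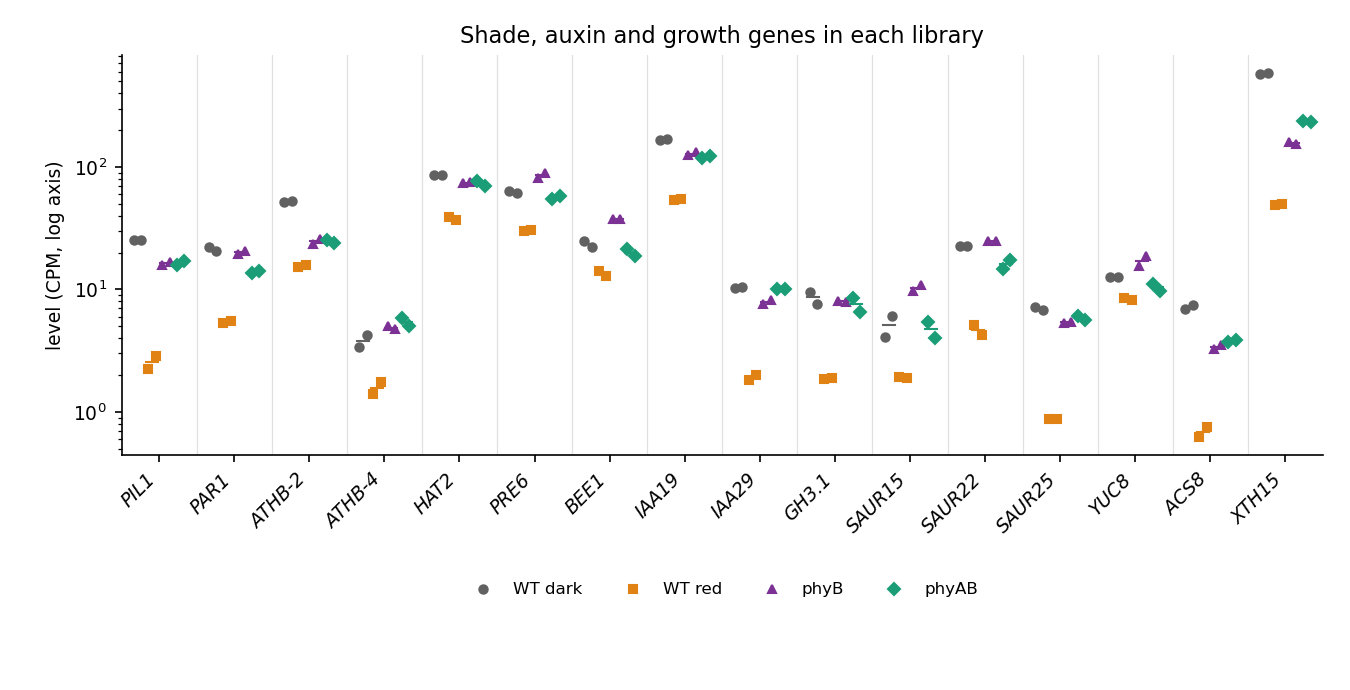
Level in each of the 8 libraries (CPM, log axis) of 16 shade, auxin and growth genes, with a bar at the mean of the 2 libraries of a group. For each gene both phyB libraries lie above both WT red libraries, as for PIL1 at 15.9 and 16.7 against 2.23 and 2.88 CPM. The genes were chosen with earlier results known, and 30.2% of all tested genes lie apart in this direction.

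Other growth hormones showed mixed differences. Of 25 ethylene genes 10 were higher and 4 lower. At least 2-fold, 2 were higher, ACS8 among them, and 1 lower. Over all tested members, called or not, the log2 changes ran from -2.77 to 3.23. ERF1, an ethylene response factor, had 14 reads in WT red and 2 in phyB, 7.60-fold lower with a 95% counting interval of 1.75 to 68.9. ACS8, an ACC synthase of the rate-limiting step, was at 0.622 and 0.752 CPM in WT red and 3.24 and 3.51 in phyB (log2 change 2.31, SE 0.30, adjusted p = 6.07e-11), and ACO4, an ACC oxidase of the last step, was at 138 and 142 CPM in WT red and 272 and 277 in phyB (log2 change 0.98, SE 0.031, adjusted p = 1.02e-59). Without phyB replicate 2 the ethylene counts were 6 higher and 2 lower, and without WT red replicate 1 they were 7 and 2. Of 24 tested gibberellin genes 6 were higher and 3 lower. GA20OX1, an enzyme of gibberellin synthesis, was at 22.1 and 22.8 CPM in WT red and 39.0 and 40.1 in phyB (log2 change 0.82, SE 0.076, adjusted p = 2.81e-18), and GAI, a DELLA repressor of the same pathway, was at 23.4 and 26.5 CPM in WT red and 41.6 and 42.4 in phyB (log2 change 0.76, SE 0.069, adjusted p = 1.3e-18). Of 24 brassinosteroid genes 10 were higher and 4 lower, or 9 and 2 without WT red replicate 2 or phyB replicate 1. BEH1, a homologue of the response factor BZR1, was at 7.41 and 7.52 CPM in WT red and 13.97 and 13.2 in phyB (log2 change 0.86, SE 0.13, adjusted p = 1.36e-08), while DET2, an enzyme of synthesis, was at 21.2 and 19.2 CPM in WT red and 13.2 and 12.6 in phyB (log2 change -0.66, SE 0.098, adjusted p = 8.9e-09).

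Cytokinin genes were more often lower. Of 23 tested, 11 were lower and 3 higher, with a median log2 change of -0.26. These counts became 2 lower and 1 higher under the assumed coefficient of variation of 0.1. ARR15, a response regulator that cytokinin induces, was at 2.64 and 3.39 CPM in WT red and 0.561 and 0.719 in phyB (log2 change -2.19, SE 0.35, adjusted p = 1.12e-07), and phyAB had 0.723 and 0.707 CPM. CKX5, which breaks cytokinin down, was higher, at 16.4 and 16.5 CPM in WT red and 34.0 and 34.4 in phyB (log2 change 1.06, SE 0.082, adjusted p = 2.63e-23), and CKX4 of the same family was lower (log2 change -0.96). CGA1, a cytokinin- and light-responsive GATA factor that promotes chloroplast development, was at 6.99 and 6.83 CPM in WT red and 3.06 and 3.78 in phyB (log2 change -0.998, SE 0.19, adjusted p = 6.93e-06).

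Cell wall genes split within families. Of 28 tested XTH genes, whose enzymes cut and rejoin xyloglucan, 13 were higher and 6 lower, with 3 lower without phyB replicate 1 or phyB replicate 2. XTH15 was at 49.1 and 49.8 CPM in WT red and 160.1 and 154 in phyB (log2 change 1.67, SE 0.041, adjusted p = 1.33e-72), against 578 and 581 CPM in WT dark. Of 21 tested expansin genes, whose proteins loosen walls, 5 were higher and 7 lower. EXPA16 was at 23.8 and 23.4 CPM in WT red and 4.86 and 4.45 in phyB (log2 change -2.35, SE 0.13, adjusted p = 2.83e-36), so that phyB stood near WT dark at 4.76 and 5.59 CPM. EXPA8 had the largest increase among called expansins, at 82.9 and 80.8 CPM in WT red and 118 and 119 in phyB (log2 change 0.54, SE 0.04, adjusted p = 1.49e-24).

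Most genes of light harvesting, the photosystems, the Calvin cycle and chlorophyll synthesis were higher in phyB, by small amounts. Of 27 genes of light-harvesting proteins and early light-induced proteins (ELIPs) 24 were higher and 0 lower, with a median log2 change of 0.34. Of 34 tested nuclear photosystem genes 32 were higher and 0 lower, with a median of 0.26 and a maximum of 0.40. Of 19 Calvin cycle genes 17 were higher and 2 lower, or 1 lower without WT red replicate 1 or phyB replicate 2. Of 27 chlorophyll synthesis genes 18 were higher and 1 lower, or 2 lower without WT red replicate 1. The lower one was HY1, a haem oxygenase that makes the precursor of the phytochrome chromophore. Of 23 genes of carotenoid synthesis and related routes 11 were higher and 1 lower, or 7 and 0 without WT red replicate 1 and 10 and 0 without phyB replicate 2. Under the assumed coefficient of variation of 0.1 the higher genes of these 5 lists numbered 4, 0, 1, 0 and 0.

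ELIP2, an ELIP of greening plastids, was at 109 and 109 CPM in WT red and 277 and 269 in phyB (log2 change 1.32, SE 0.033, adjusted p = 2.04e-71). ELIP1 was at 68.1 and 68.3 CPM in WT red and 158 and 158 in phyB (log2 change 1.21, SE 0.041, adjusted p = 9.22e-57). LHCB2.3, of the main antenna of photosystem II, was at 143 and 149 CPM in WT red and 287 and 282 in phyB (log2 change 0.96, SE 0.032, adjusted p = 1.37e-58). All 3 were far lower in darkness, at 3.11 and 2.85, 1.65 and 1.61 and 4.41 and 5.96 CPM, so phyB lay further from WT dark than WT red did. RBCS2B, a small subunit of Rubisco whose copies may share reads, was at 462 and 459 CPM in WT red and 735 and 732 in phyB (log2 change 0.67, SE 0.014, adjusted p = 2.62e-80). In phyAB, ELIP2, LHCB2.3 and RBCS2B stood below WT red, at 48.3 and 48.6, 88.5 and 91.1 and 365 and 365 CPM, and ELIP1 above it at 78.5 and 82.7. Of 6 plastid sigma factor genes 4 were higher and 0 lower. SIG5, a light-responsive sigma factor of the plastid RNA polymerase, was at 50.7 and 48.4 CPM in WT red and 80.5 and 87.4 in phyB (log2 change 0.76, SE 0.055, adjusted p = 1.59e-25).

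Reads of the plastid genome moved the same way. Of 84 tested plastid-encoded genes 42 were higher and 0 lower, with a median log2 change of 0.34, and 31 to 34 were higher with 1 library left out. ATCG00190 was at 8.60 and 9.09 CPM in WT red and 17.7 and 15.6 in phyB (log2 change 0.91, SE 0.12, adjusted p = 3.02e-10). Plastid transcripts mostly lack long poly(A) tails and the RNA was selected with oligo(dT), so their level and their recovery cannot be told apart. Under the assumed coefficient of variation of 0.1, 1 plastid gene passed. Mitochondrial genes did not move this way. Of 44 tested, 0 were higher and 2 lower, with a median log2 change of -0.25. Their list summed to 285 and 284 CPM in WT red and 179 and 187 in phyB.

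HY5, a bZIP factor that promotes greening, was at 39.7 and 43.5 CPM in WT red and 52.5 and 46.9 in phyB (log2 change 0.25, SE 0.063, adjusted p = 0.000799), and was not called without WT red replicate 1 or phyB replicate 1 (log2 change 0.18 and 0.18). RUP1, a repressor of the UV-B receptor UVR8, was at 22.2 and 20.9 CPM in WT red and 44.8 and 45.2 in phyB (log2 change 1.06, SE 0.075, adjusted p = 5.13e-26). Of 28 regulators of light signalling 11 were higher and 2 lower, or 6 and 1 without WT red replicate 1 and 8 and 1 without phyB replicate 1. Of 26 tested B-box genes 8 were higher and 1 lower, or 6 and 3 without WT red replicate 2, 8 and 2 without phyB replicate 1 and 7 and 2 without phyB replicate 2. BBX28, a B-box factor of light signalling, was at 19.2 and 18.2 CPM in WT red and 37.1 and 35.3 in phyB (log2 change 0.94, SE 0.077, adjusted p = 1.1e-21). Of 24 clock genes 8 were lower and 1 higher. LUX, of the evening complex of the clock, was at 49.7 and 46.8 CPM in WT red and 31.1 and 31.5 in phyB (log2 change -0.63, SE 0.063, adjusted p = 2.77e-16), and the morning gene CCA1 was at 63.0 and 63.8 CPM in WT red and 56.3 and 55.3 in phyB (log2 change -0.19, SE 0.051, adjusted p = 0.00222). No clock gene passed under the assumed coefficient of variation of 0.1.

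Some genes that darkness or sugar shortage induces gained many reads. ASN1, an asparagine synthetase and standard marker of that state, was at 90.2 and 94.98 CPM in WT red and 302 and 308 in phyB (log2 change 1.72, SE 0.033, adjusted p = 1.71e-86). DIN10, a raffinose synthase-like gene, was at 507 and 504 CPM in WT red and 987 and 980.2 in phyB (log2 change 0.96, SE 0.012, adjusted p = 2.27e-107). Both were higher still in WT dark, at 485 and 478 and 1390 and 1401 CPM, and phyAB had 129 and 123 and 441 and 443. Of 17 tested genes of this list 9 were higher and 3 lower.

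The largest losses in reads were in a defence system of Brassicaceae seedlings. ER bodies are compartments of the endoplasmic reticulum that store beta-glucosidases such as BGLU23 (PYK10), which is bound by jacalin-related lectins when cells are broken. Of 14 tested ER body genes 13 were lower and 0 higher, with a median log2 change of -0.57 and 0 at least 2-fold lower. BGLU23 was at 18238 and 18231 CPM in WT red and 11068 and 11121 in phyB (log2 change -0.72, SE 0.0051, adjusted p = 1.08e-07). JAL22, a jacalin-related lectin, was at 3761 and 3767 CPM in WT red and 1966 and 1986 in phyB (log2 change -0.93, SE 0.0029, adjusted p = 3.51e-34). NAI2, which is needed to form ER bodies, was at 2903 and 2856 CPM in WT red and 1759 and 1781 in phyB (log2 change -0.70, SE 0.015, adjusted p = 7.99e-06). BGLU18 was the tested member that was not called, at 3.63 and 3.13 CPM in WT red and 4.43 and 2.97 in phyB. Together the genes took 3.78% and 3.77% of the reads in WT red and 2.48% in each phyB library. Their summed level was 38693 and 38599 CPM in WT red and 24615 and 24692 in phyB, with 30534 and 30592 CPM in WT dark and 32793 and 32745 in phyAB, so phyB was the lowest of the 4 groups. Under the assumed coefficient of variation of 0.1, 6 of them were lower.

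Glucosinolates are the sulfur compounds that plant glucosidases of this kind cleave. Of 20 tested genes of their synthesis, transport and breakdown 12 were lower and 0 higher, with a median log2 change of -0.33. NSP1, which steers breakdown towards nitriles, was at 4256 and 4236 CPM in WT red and 2459 and 2431 in phyB (log2 change -0.80, SE 0.007, adjusted p = 2.5e-07). UGT74B1, of the core pathway, was at 42.9 and 40.8 CPM in WT red and 24.1 and 23.6 in phyB (log2 change -0.82, SE 0.069, adjusted p = 7.61e-21). CYP83B1, of the indole route, was at 206 and 211 CPM in WT red and 129.9 and 123 in phyB (log2 change -0.72, SE 0.033, adjusted p = 1.06e-43). In phyAB both enzymes stood above WT red, at 53.1 and 55.9 and 285 and 283 CPM. Under the assumed coefficient of variation of 0.1, 3 genes of the list were lower.

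Of 29 tested jasmonate genes 16 were lower and 1 higher, with a median log2 change of -0.31. The higher one, JAZ9 (log2 change 0.19), was not called without any 1 of the 4 libraries. VSP2, a vegetative storage protein that jasmonate induces, was at 42.3 and 42.1 CPM in WT red and 12.5 and 13.7 in phyB (log2 change -1.68, SE 0.085, adjusted p = 4.29e-39). VSP1, its neighbour and close copy, was at 32.4 and 30.6 CPM in WT red and 10.1 and 10.7 in phyB (log2 change -1.60, SE 0.091, adjusted p = 5.08e-34). VSP2 in phyB was near its level in WT dark, 16.6 and 13.96 CPM, and in phyAB, 15.9 and 17.4. Jasmonate genes numbered 3 lower and 0 higher under the assumed coefficient of variation of 0.1.

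Of 35 tested glutathione transferase genes, whose enzymes conjugate toxic compounds, 21 were lower and 3 higher, with a median log2 change of -0.26. These counts became 4 lower and 1 higher under the assumed coefficient of variation of 0.1. Of 13 tested cold-regulated genes 9 were lower and 0 higher, and these counts stayed at 9 and 0 with any 1 library left out. KIN2 was at 51.8 and 48.7 CPM in WT red and 26.6 and 29.3 in phyB (log2 change -0.84, SE 0.069, adjusted p = 1.41e-21). RD29B, which drought and abscisic acid induce, was at 262 and 266 CPM in WT red and 137 and 143 in phyB (log2 change -0.91, SE 0.03, adjusted p = 1.29e-57). WT dark was lower still, at 6.26 and 4.19 and 98.8 and 96.0 CPM. Of 23 genes of rapid touch and stress responses 9 were lower and 3 higher, and ZAT10, a zinc-finger repressor, was at 16.7 and 16.0 CPM in WT red and 7.92 and 8.09 in phyB (log2 change -1.03, SE 0.11, adjusted p = 1.27e-14). The assumed coefficient of variation of 0.1 left 1 of these touch genes and 3 of the cold-regulated genes lower. Of 32 tested genes of cuticle wax and cutin 9 were higher and 7 lower, or 5 and 5 without WT red replicate 1. CER1, of wax alkane synthesis and the lower one with the largest change, was at 207 and 214 CPM in WT red and 117 and 112 in phyB (log2 change -0.88, SE 0.033, adjusted p = 4.2e-52).

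Chaperone genes were lower in part. Of 35 genes of ER chaperones and the unfolded protein response 12 were lower and 0 higher, or 1 higher without phyB replicate 1. BIP3, an ER chaperone that misfolded protein induces, stood apart at 15.7 and 14.7 CPM in WT red and 2.43 and 2.97 in phyB (log2 change -2.47, SE 0.15, adjusted p = 7.81e-31). ERDJ3A, of the DNAJ co-chaperone family, was at 15.7 and 14.3 CPM in WT red and 7.73 and 8.63 in phyB (log2 change -0.87, SE 0.12, adjusted p = 9.26e-10). Of 43 tested heat shock genes 16 were lower and 2 higher, or 13 and 1 without phyB replicate 2. HSP17.4 was at 3.42 and 2.70 CPM in WT red and 1.37 and 1.08 in phyB (log2 change -1.35, SE 0.30, adjusted p = 0.000113). The assumed coefficient of variation of 0.1 left 2 genes of the ER list and 3 heat shock genes lower.

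**Figure D3:**
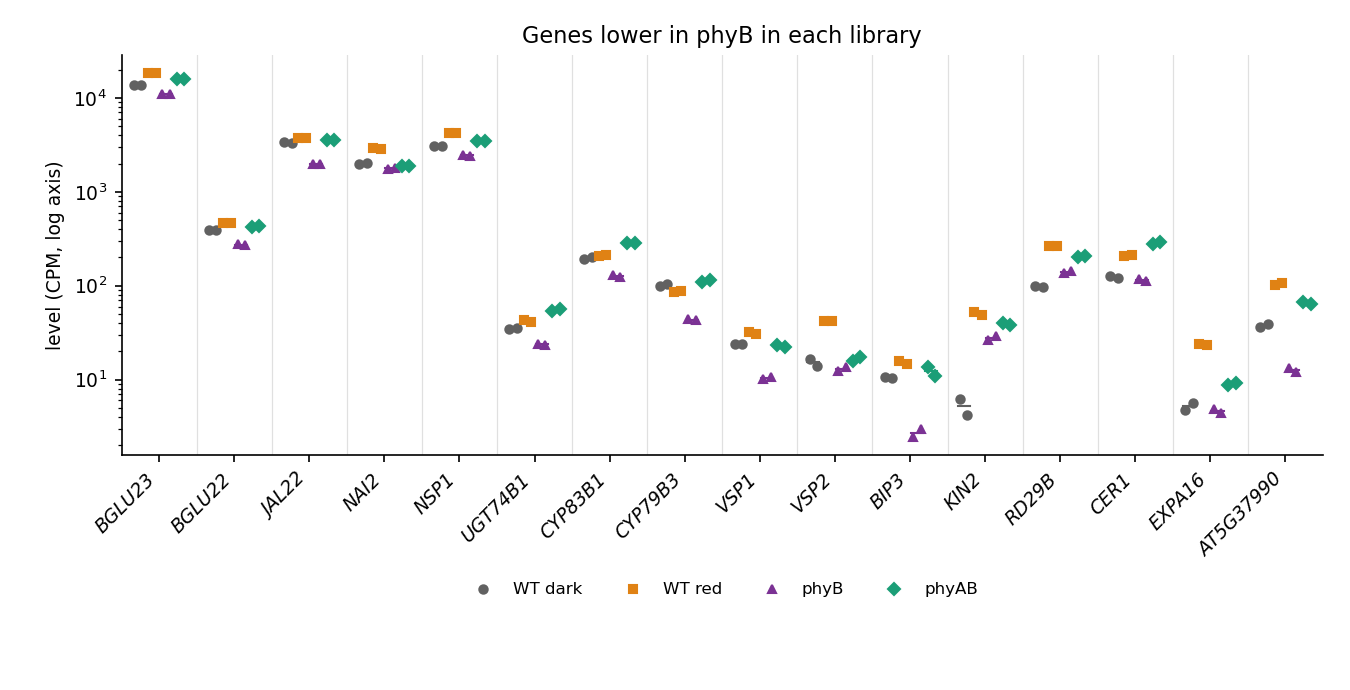
Level in each of the 8 libraries (CPM, log axis) of 16 genes lower in phyB than in WT red, with a bar at the mean of the 2 libraries of a group. Both phyB libraries lie below both WT red libraries for each gene, as for BIP3 at 2.43 and 2.97 against 15.7 and 14.7 CPM. The genes were chosen with their values known, and 30.1% of all tested genes lie apart in this direction.

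Markers of organs were read beside these lists, outside the rule for naming genes. Of all tested genes 13.1% were higher and 14.1% lower, and the counts of root hair genes lay near those shares. Of 14 tested root patterning genes 5 were higher, a larger share than the 13.1%, and 0 lower, with a median log2 change of 0.17. The summed level of their list was 572 and 566 CPM in WT red and 649.8 and 614 in phyB. The root regulators SHR and SCR were not called, SHR at 28.4 and 27.3 CPM in WT red and 28.8 and 26.3 in phyB. Of 30 tested root hair genes 4 were higher and 4 lower, or 2 higher without either of the WT red libraries, with a median log2 change of 0.01. PRP1, LRX2, RHS13 and RHS15 were higher (log2 change 0.47 to 0.80), and SHV2 (COBL9), EXPA7 and EXPA18 were not called. The lower ones were LRL1, RBOHC, WER and RHD6, which starts root hair growth and was at 3.99 and 3.51 CPM in WT red and 0.935 and 0.989 in phyB (log2 change -1.96, SE 0.26, adjusted p = 2.53e-10). Of 9 tested shoot apex genes 2 were higher, CLV1 and KNAT2 (log2 change 0.46 and 0.69), and 1 lower, or 1 and 1 without WT red replicate 1 and 1 and 0 without phyB replicate 2. KNAT1 was not called, at 116 and 117 CPM in WT red and 126 and 121 in phyB, and STM was the lower one, at 9.38 and 9.40 CPM in WT red and 6.92 and 6.20 in phyB (log2 change -0.53, SE 0.15, adjusted p = 0.00341), though not called without phyB replicate 2 (log2 change -0.44). WUS was at 0.0518 and 0 CPM in WT red and 0 and 0 in phyB, and the seed albumin gene SESA1 at 0 and 0 CPM in WT red and 0 and 0.0899 in phyB. Other seed genes had reads. Of 14 tested seed storage and LEA genes 2 were higher and 3 lower, with log2 changes from -1.99 to 2.31. Fewer were higher with any 1 library left out, and fewer lower without WT red replicate 1 or phyB replicate 2. Their list summed to 169 and 171 CPM in WT red and 147 and 152 in phyB. The part of organ size in the lower lists was not tested.

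**Figure D4:**
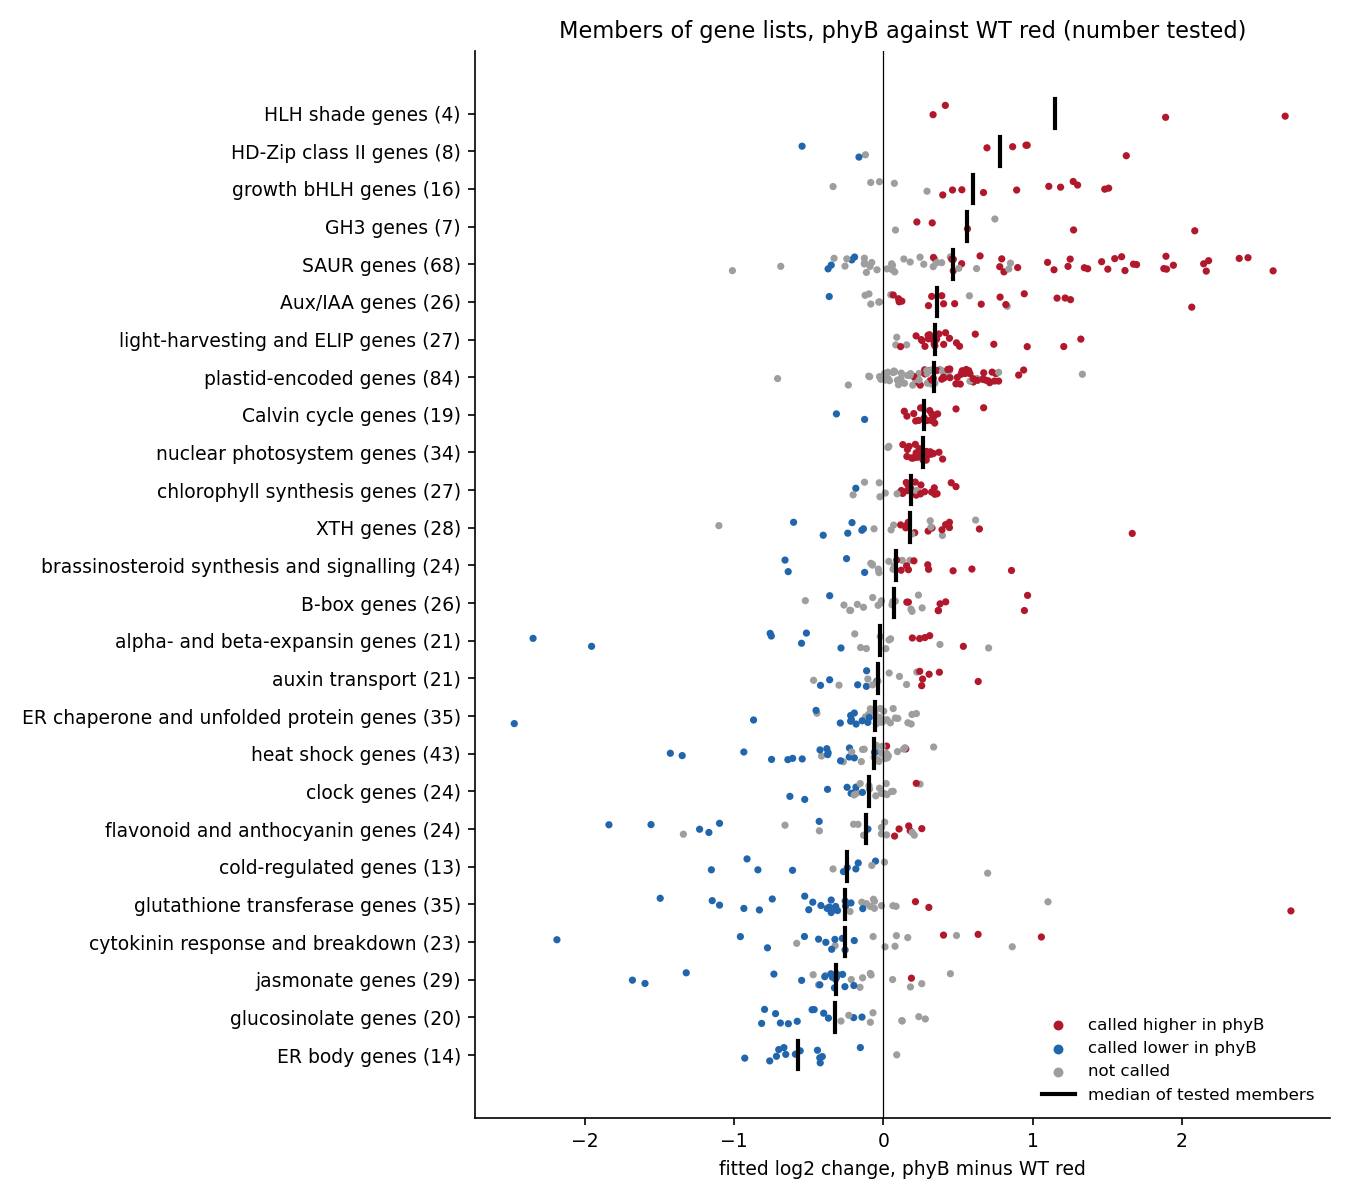
Fitted log2 change (phyB minus WT red) of every tested member of 26 gene lists, one row a list, red for called higher, blue for called lower and grey for not called. Black bars are medians, as 1.15 for the HLH shade genes and -0.57 for the ER body genes.

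The largest folds belonged to genes outside these lists, most without a known role. AT3G55900, annotated as an F-box gene, was at 5.08 and 5.52 CPM in WT red and 0 and 0 in phyB, with 186 reads in WT red and 0 in phyB. It was at least 67.3-fold lower, with 3 reads over both phyB libraries as the floor. Its neighbour AT3G55910, annotated as an ADP-ribosylation factor GTPase-activating protein, had 187 reads in WT red and 3 in phyB, 67.7-fold lower with a 95% counting interval of 22.8 to 331. They lie side by side on chromosome 3 of TAIR10.1, at 20742166 to 20742653 and 20742676 to 20743479. In phyAB they stood at wild-type levels, AT3G55900 at 4.61 and 5.48 CPM and AT3G55910 at 4.43 and 6.01. The difference of phyB from phyAB, a comparison in which 50.2% of all tested genes were called, passed for both (adjusted p = 2.61e-28 and 1.95e-26).

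In the other direction AT3G29633, an uncharacterized gene, had 3 reads in WT red and 283 in phyB, 86.9-fold higher with an interval of 29.4 to 424. AT3G01345, also uncharacterized, was at 0.570 and 0.125 CPM in WT red and 12.7 and 14.9 in phyB (log2 change 5.21, SE 0.27, adjusted p = 2.91e-38). AT2G01008, annotated as a maternal effect embryo arrest protein, was at 2.43 and 1.88 CPM in WT red and 25.1 and 25.9 in phyB (log2 change 3.54, SE 0.15, adjusted p = 8.6e-46). In phyAB these 3 genes were at 0.0904 and 0.0589, 1.22 and 1.24 and 1.76 and 2.12 CPM, and each differed between phyB and phyAB (adjusted p = 7.44e-30, 1.69e-33 and 1.01e-48). AT3G55240, annotated as a plant protein of unknown function, had 37 reads in phyB and 0 in WT red, at least 11.4-fold higher.

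ROS1, a DNA glycosylase that removes methylated cytosine, was at 9.84 and 9.03 CPM in WT red and 72.7 and 73.8 in phyB (log2 change 2.95, SE 0.079, adjusted p = 1.23e-68). WT dark had 9.12 and 7.57 CPM, and phyAB lay between at 31.5 and 31.0, a difference that passed the test (log2 change 1.23 for phyB minus phyAB, SE 0.061, adjusted p = 4.45e-40). Of 25 tested genes of DNA methylation and demethylation 2 were higher, ROS1 and AGO4, and 1 lower, DME, with log2 changes of 0.20 for AGO4 and -0.14 for DME. AGO4 was not called without phyB replicate 1 or either of the WT red libraries, nor DME without WT red replicate 1 or phyB replicate 2. AT4G08990, annotated as a cytosine methyltransferase and not in that list, was at 0.104 and 0.188 CPM in WT red and 1.12 and 1.03 in phyB (log2 change 2.86, SE 0.63, adjusted p = 9.86e-05). DMT2, another DNA methyltransferase gene outside the list and named outside the rule, was also higher (log2 change 1.12).

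Other large folds rested on few reads. HAK5, a potassium transporter that potassium shortage induces, was at 0.104 and 0.251 CPM in WT red and 2.18 and 1.80 in phyB (log2 change 3.48, SE 0.52, adjusted p = 7.55e-09). IPS1, a non-coding RNA that phosphate shortage induces, was at 1.24 and 1.69 CPM in WT red and 0.125 and 0.135 in phyB (log2 change -3.41, SE 0.57, adjusted p = 2.42e-07). GolS4, of raffinose-family sugar synthesis, was at 3.21 and 3.39 CPM in WT red and 0.312 and 0.495 in phyB (log2 change -2.96, SE 0.37, adjusted p = 1.03e-11). The groups did not overlap in any of these 3 genes, but the rule for naming the largest changes required that. Both phyB libraries lay above both of WT red in 30.2% of all tested genes and below both in 30.1%. IPS1 had 5 reads and GolS4 16 in the phyB libraries together.

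**Figure D5:**
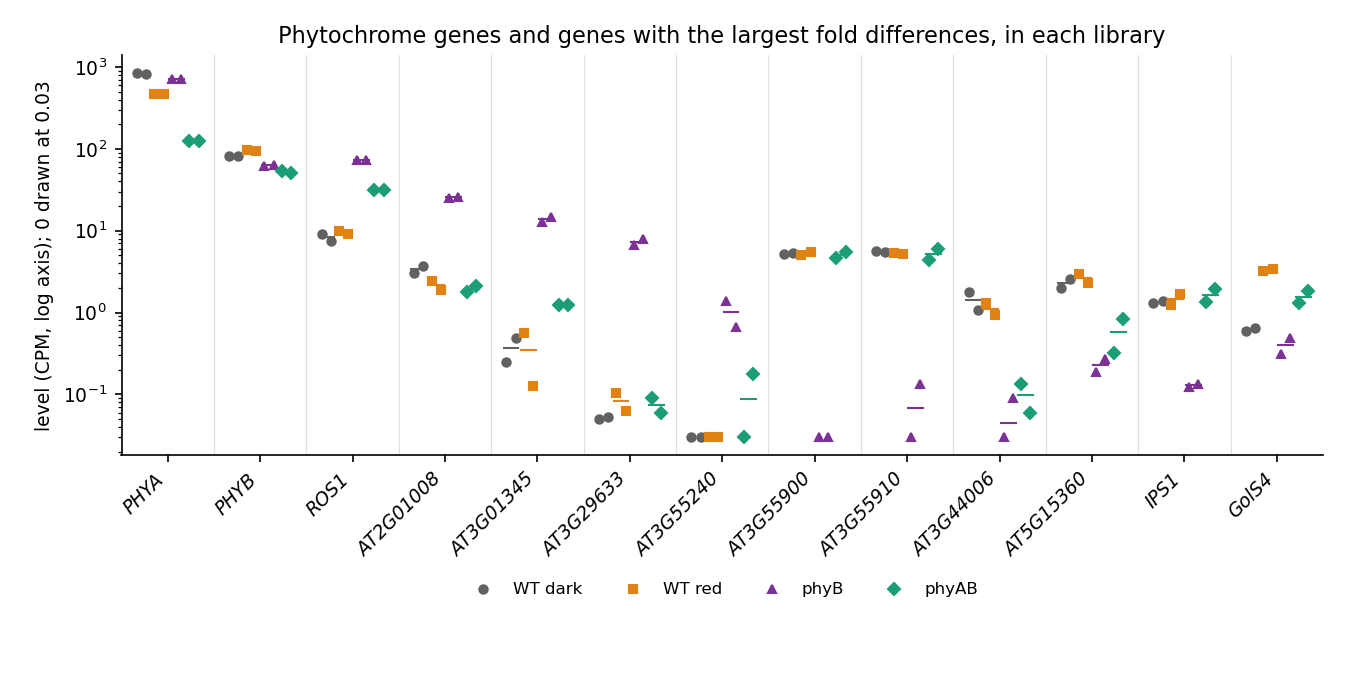
Level in each of the 8 libraries (CPM, log axis, 0 drawn at 0.03) of PHYA, PHYB and 11 genes with large folds, with a bar at the mean of the 2 libraries of a group. AT3G55900 and AT3G55910 stand between 4.43 and 6.01 CPM in every library other than those of phyB, and ROS1 is at 72.7 and 73.8 CPM in phyB.

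The genes past 2-fold were spread over the genome, from 1.96% of the tested genes of chromosome 1 to 2.46% of those of chromosome 4. Among the 200 tested loci nearest to PHYB, 100 on each side, 53 were called (26.5%) and 6 were past 2-fold (3.0%), against 27.2% and 2.17% of all tested genes. Of the 449 genes past 2-fold, 79 (17.6%) stood in 32 runs of neighbouring tested loci that differed in the same direction, 17 higher and 15 lower.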

How the data were processed

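RNA of whole seedlings was selected with oligo(dT) beads, per the labels' protocols. The deposited counts are whole reads per gene model, with 1 model per locus and 27416 in all, of which 24548 had a read. The deposited RPKM values, which the authors computed per file headers from the same reads and the model length, were not tested, and the length they imply was whole for 100.0% of models within 0.01. Per the submitters' processing notes the genome build is TAIR10. How reads were aligned and counted, how reads shared by near-identical genes were treated and whether strand was used are not given in the sources. The files hold locus identifiers and no coordinates, so positions, symbols and sequences come from RefSeq's TAIR10.1 annotation by locus, which named 10039 of the 27416 loci.

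Counts were filtered (filterByExpr, minimum count 10), scaled by TMM and fitted with edgeR 4.0.16 (quasi-likelihood, robust, R 4.3.3) over all 8 libraries with 1 coefficient per group. phyB was then contrasted with WT red over 20716 genes with Benjamini-Hochberg adjustment, and the fit was tested on simulated data. Each group had 2 libraries. SE is the size of the log2 change divided by the square root of the F value of the test, and not a separate estimate. For genes with many reads, such as JAL22, it can be smaller than counting error alone would give. Alternatives were RLE and upper-quartile scaling, no filter and a minimum count of 50, the 4 libraries alone, DESeq2 1.42.0, a replicate block, glmTreat against 1.5-fold, each library left out, and a coefficient of variation of 0.1 assumed on summed libraries. Genes were named by rule: a set of light, growth and large-fold genes, the 12 largest called changes each way at 1 CPM or more without overlap between groups, the 8 largest gains and losses in CPM, and up to 3 called genes each way per list. The comparison, the lists and their members were chosen with earlier results of these data known, so they are no independent support.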

Additional observations from a re-analysis of the deposited data

How the results depend on the processing

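The 5633 called genes became 379 under glmTreat against a fold of 1.5, 625 with an assumed coefficient of variation of 0.1 and 3651 with DESeq2. With 1 library left out, 4234 to 4746 genes were called and 413 to 450 of them were at least 2-fold, against 449 with all libraries. The count at least 2-fold was 286 with a minimum count of 50, which tests 17918 genes and drops weakly expressed ones, and 267 under glmTreat. The other settings gave 5559 to 5686 called genes. The share of called genes that were higher was 48.2%, and 50.7% with RLE scaling. The deviations of phyB replicate 1 and WT red replicate 1 from their group means correlated at -0.0026 over the tested genes. With 2 libraries a group the deviations of the replicates numbered 2 mirror these. This 1 value does not settle whether the numbers pair the libraries. With the replicate block 5662 genes were called and 452 were at least 2-fold. Of 258 named called genes, 172 lost their call under glmTreat, 154 with the assumed coefficient of variation, 49 of 254 with DESeq2, and 31 to 47 with 1 library left out. No named gene changed direction under any of these settings. Depth limits weakly expressed genes most, since 3 reads are 0.135 to 0.188 CPM.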

Other observations

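Genes of 1 metabolic gene cluster were lower together in phyB; they were picked after their values were seen. The thalianol cluster of chromosome 5 makes a root triterpene, and 4 neighbouring genes were called lower and at least 2-fold. THAS1, the thalianol synthase, was at 693 and 690.0 CPM in WT red and 253 and 260.0 in phyB (log2 change -1.43, SE 0.02, adjusted p = 1.08e-101) by edgeR. The cytochrome P450 genes CYP708A2 and CYP705A5 were at 507 and 497 CPM in WT red and 208 and 216 in phyB (log2 change -1.24, SE 0.023, adjusted p = 1.18e-86) and at 1257 and 1265 CPM in WT red and 607 and 622 in phyB (log2 change -1.03, SE 0.0098, adjusted p = 1.11e-123). AT5G47980, annotated as an acyltransferase, was at 72.2 and 70.8 CPM in WT red and 22.6 and 20.7 in phyB (log2 change -1.73, SE 0.063, adjusted p = 1.25e-53). In phyAB, THAS1 and CYP708A2 stood at 732 and 716 and 539 and 535 CPM, above WT red, whereas CYP705A5 and AT5G47980 stood below it at 973 and 959.6 and 45.7 and 44.2.

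Another run of 6 neighbours on chromosome 5, AT5G37980 to AT5G38030, was lower as well. AT5G37990, annotated as a methyltransferase, had the largest change of the run, at 102 and 108 CPM in WT red and 13.4 and 12.1 in phyB (log2 change -3.05, SE 0.065, adjusted p = 1.62e-80), and AT5G38030, a MATE efflux family gene, was at 119.8 and 118 CPM in WT red and 54.5 and 58.9 in phyB (log2 change -1.06, SE 0.044, adjusted p = 9.3e-48). On chromosome 1, MRD1 and its neighbour HEI10, also picked after their values were seen, were at 19.9 and 19.2 CPM in WT red and 5.05 and 3.91 in phyB (log2 change -2.15, SE 0.12, adjusted p = 2.1e-33) and at 27.1 and 26.96 CPM in WT red and 6.05 and 6.11 in phyB (log2 change -2.15, SE 0.11, adjusted p = 4.18e-40). Both neighbours lay at 16.4 and 16.2 and 21.5 and 21.8 CPM in phyAB, between phyB and WT red. Runs of higher genes included SAUR26 to SAUR29, whose copies may share reads.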
